A study of Rattus norvegicus with 10 samples.

Results

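The cytosolic ribosomal protein genes encode the proteins that, with ribosomal RNA, build the large and the small subunit of the ribosome of the cytoplasm. Members were the protein_coding rows of the table whose symbol is Rpl or Rps followed by a number and up to 2 letters from a, x and l, or is Rpsa, Rplp0, Rplp1 or Rplp2, which gave 68 of 12828 rows. They carried 66 symbols, because Rpl32 and Rps27a each named 2 rows, and divided into 40 rows of the large subunit and 28 of the small subunit. RNA-seq was carried out on the arcuate nucleus (ARC), a nutrient-sensing nucleus of the hypothalamus, from 10 Wistar rat dams in their first pregnancy. At parturition, 5 dams had received the 5X-FA diet, with folic acid at 5 times the recommended level, and 5 the 5X-MTHF diet, with an equimolar amount of the reduced folate [6S]-5-methyltetrahydrofolic acid. Ages were not given in the sources used here. The ARC was cut freehand from frozen slices, so neighbouring tissue may have entered the samples.

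The value used for each gene was the authors' average log2 CPM (read counts scaled to the library total, on a log2 scale) over all libraries of both diets. It has no SD and no n, and values per dam were not used, so neither the spread between dams nor a difference between the diets is given for any ribosomal protein gene. The depth of single libraries was not computed, since such an average does not hold it. The value is not divided by transcript length, so the order of genes on this scale is an order of reads and not of mRNA molecules.

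The markers of the labelled tissue were partly present. Of 13 ARC markers, 11 were analysed, with Cartpt, an appetite-suppressing peptide, at an average log2 CPM of 6.02 and Th, the first enzyme of dopamine synthesis, at 5.20. Pomc, the melanocortin precursor, was at 4.67, while Agrp, which marks hunger-promoting neurons, was at 1.42 and Kiss1, the kisspeptin gene, at 0.08. Npy and Nr5a2 were not analysed here. The oligodendrocyte marker Mbp, which encodes myelin basic protein, reached 12.59, a CPM of 6161, and the oligodendrocyte marker Mog was at 7.26. The 4 oligodendrocyte markers summed to 12965 CPM, 4 neuronal markers to 2841 CPM and 4 astrocyte markers to 2878 CPM. The thalamic and excitatory marker Slc17a6 was at 8.09, the striatal marker Ppp1r1b at 7.07 and the cortical marker Slc17a7 at 7.17. The globin genes Hba-a2 and Hbb were at 9.08 and 8.96. The ribosomal protein levels are therefore averages over a mixture of cell types, in which fewer cells of a type and less RNA per cell cannot be told apart, and the part of these other tissues in the levels was not tested.

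Each ribosome holds, as a rule, 1 copy of each ribosomal protein, and the stalk of the large subunit, built on Rplp0, is the exception with several copies of its acidic proteins. Many mRNAs of these proteins begin with a cytosine followed by a run of pyrimidines, the 5′ terminal oligopyrimidine (TOP) tract, through which the kinase complex mTORC1 and the RNA-binding protein LARP1 control their translation. Neurons translate both in the cell body and in dendrites and axons, and ribosomal protein mRNAs are known to be among the transcripts carried there. Processed pseudogenes of ribosomal protein genes are abundant in mammalian genomes.

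The start sites were examined for this tract in RefSeq promoter windows on the build GRCr8, which run from 250 bases before to 50 bases from the annotated start. Of the 66 symbols, 50 had a window, and Rps27a had 2, which gave 51 windows. Among the symbols without an entry were Rpl7, Rpl10l, Rpl15, Rpl23a, Rpl27, Rpl30, Rpl32, Rpl36al, Rpl39l, Rps20 and Rps25. The 10 windows with a run of at least 8 bases at the start are shown first. Those 10 windows had the longest runs counted from the annotated start. Each runs from 40 bases before to 20 bases from the annotated start on the strand of the gene, and the capitals mark the cytosine at the first transcribed base and the pyrimidines that follow it without a break.
Rpl10 (chrX:157205810-157205869, + strand): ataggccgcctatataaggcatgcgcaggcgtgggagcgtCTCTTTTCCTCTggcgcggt
Rpl31 (chr9:49143071-49143130, + strand): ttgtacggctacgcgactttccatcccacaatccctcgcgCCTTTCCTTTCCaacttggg
Rpl37a (chr9:81748051-81748110, + strand): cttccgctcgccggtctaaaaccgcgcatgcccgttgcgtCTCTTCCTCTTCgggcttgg
Rpl19 (chr10:83519024-83519083, + strand): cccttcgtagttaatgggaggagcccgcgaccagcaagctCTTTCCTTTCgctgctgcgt
Rpl28 (chr1:78083513-78083572, - strand): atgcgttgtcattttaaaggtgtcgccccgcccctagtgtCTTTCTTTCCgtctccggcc
Rplp1 (chr8:71290853-71290912, - strand): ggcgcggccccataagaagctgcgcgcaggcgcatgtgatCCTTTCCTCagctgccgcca
Rps18 (chr20:4933705-4933764, + strand): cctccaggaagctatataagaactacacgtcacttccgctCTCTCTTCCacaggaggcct
Rpl17 (chr18:70856236-70856295, + strand): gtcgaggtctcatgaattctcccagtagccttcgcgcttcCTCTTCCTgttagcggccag
Rps15 (chr7:10068096-10068155, - strand): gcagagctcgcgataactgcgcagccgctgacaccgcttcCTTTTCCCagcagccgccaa
Rps7 (chr6:50999426-50999485, - strand): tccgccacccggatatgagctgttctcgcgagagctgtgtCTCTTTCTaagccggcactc
The run was 12 bases long in Rpl10, which sits near the tRNA sites and the catalytic centre, in Rpl31 and in Rpl37a. It was 10 bases in Rpl19 and Rpl28, and 9 in the stalk protein gene Rplp1 and in Rps18, a protein of the head of the small subunit. Rpl17, Rps15 and Rps7 had runs of 8 bases. Pyrimidines before the annotated start were not counted, also where they continue the run. Counted from a cytosine 4 bases before the start, the run was 12 bases in Rpl17 and Rps15. From 2 bases before the start, it was 12 bases in Rpl19 and 11 in Rps18.

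In other members a run met the rule only when counted from a cytosine within 5 bases of the annotated start but not at it. The 5 windows below are those with the longest run counted in this way, and the capitals mark the counted bases. Pyrimidines before that cytosine were not counted, also where they continue the run.
Rps23 (chr2:23814477-23814536, + strand): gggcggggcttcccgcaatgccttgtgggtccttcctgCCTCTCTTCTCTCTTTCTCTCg
Rpl27a (chr1:172974533-172974592, + strand): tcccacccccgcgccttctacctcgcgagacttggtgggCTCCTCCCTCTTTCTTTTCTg
Rps10 (chr20:5700725-5700784, - strand): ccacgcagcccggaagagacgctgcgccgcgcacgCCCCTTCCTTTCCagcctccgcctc
Rps24 (chr16:96477-96536, + strand): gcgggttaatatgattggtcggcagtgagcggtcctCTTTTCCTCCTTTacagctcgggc
Rpl29 (chr8:115947603-115947662, + strand): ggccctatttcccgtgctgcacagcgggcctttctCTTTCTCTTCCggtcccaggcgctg
The run of Rps23, a protein of the decoding centre, was 21 bases long and began 2 bases before the annotated start, and that of Rpl27a was 20 bases long and began 1 base before it. The count was 13 bases in Rps10. It was 13 in Rps24 and 11 in Rpl29, whose unbroken runs reach farther upstream and are 17 and 18 bases long.

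A further 19 windows had no cytosine followed by at least 4 pyrimidines within 5 bases of the start. The 4 genes among them with the highest average log2 CPM are shown for contrast, with the first transcribed base in capitals.
Rpl3 (chr7:113507971-113508030, - strand): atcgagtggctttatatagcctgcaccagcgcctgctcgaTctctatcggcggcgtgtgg
Rpl21 (chr12:13386134-13386193, - strand): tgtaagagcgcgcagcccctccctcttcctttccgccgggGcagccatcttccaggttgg
Rpsa (chr8:128728839-128728898, + strand): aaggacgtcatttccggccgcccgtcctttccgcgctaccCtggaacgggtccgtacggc
Rps16 (chr1:92770618-92770677, + strand): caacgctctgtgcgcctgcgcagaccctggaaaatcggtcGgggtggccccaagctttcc
The window of Rpl21 holds a run of pyrimidines upstream of its annotated start, and that of Rpl3, a protein next to the peptidyl transferase centre, begins with a short one. The annotation places 1 start, or in some genes several, and starts used in the ARC were not measured here.

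Of the 51 windows, 18 (35.3%; exact 95% binomial interval 22.4% to 49.9%, which covers counting only) had a cytosine at the start followed by at least 4 pyrimidines, against 550 of 21851 protein-coding windows (2.52%). Among the 10583 windows of genes with a protein_coding row in the table the share was 2.83%. These background windows include those of the ribosomal protein genes. With at least 6 pyrimidines the share was 23.5% of ribosomal protein windows and 1.02% of all windows. Within 5 bases of the start it was 62.7% against 16.5%. The large subunit had the tract at the start in 12 of 29 windows and the small subunit in 6 of 22, and within 5 bases in 18 and 14. A cytosine stood at the start itself in 49.0% of ribosomal protein windows and 24.4% of all windows.

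The longest run of C or T in the 20 bases either side of the start had a median of 10 bases in ribosomal protein windows (quartiles 7 and 13) and of 5 in all protein-coding windows (quartiles 4 and 6). A run of at least 10 bases was found in 28 of 51 windows (54.9%) against 6.80% of all. The pyrimidine share over the 10 bases either side of the start averaged 68.3% against 48.4%, and more than 100 bases upstream 50.1% against 49.5%, so the windows differed near the start and hardly farther away.

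**Figure D1:**
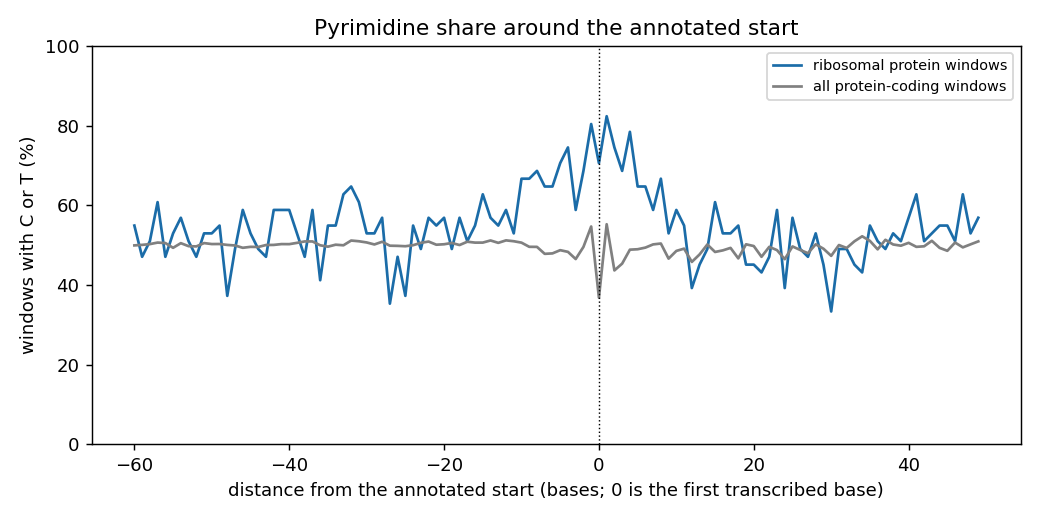
Share of windows (%) with C or T at each base from 60 before to 50 from the annotated start, for 51 ribosomal protein windows (blue) and 21851 protein-coding windows (grey). The blue line reaches 82.4% at the base after the first transcribed one, where the grey line is at 55.2%.

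Rps27 and Rps27l encode near-identical proteins of the small subunit, and their starts are shown because their levels lie far apart. The capital marks the first transcribed base.
Rps27 (chr2:177964587-177964646, - strand): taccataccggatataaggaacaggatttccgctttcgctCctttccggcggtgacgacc
Rps27l (chr8:76443618-76443677, + strand): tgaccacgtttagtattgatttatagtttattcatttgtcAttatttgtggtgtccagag
Rps27 had a cytosine and 6 more pyrimidines at its start, and Rps27l had an adenine there and no tract within 5 bases. The average log2 CPM was 6.96 for Rps27 and 3.23 for Rps27l, a ratio of 13.3 in CPM.

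Motifs known from promoters of housekeeping genes were also searched in the whole windows. Of the sequence searches, only the 3 start rules above had been planned. The motifs were chosen with the windows in view, some in more than 1 form, and all 15 forms of 9 core sequences are given. A match describes letters in a window and is not a site. Unless stated, both strands were read. The 8-base palindrome CTCGCGAG was in 7 of 51 ribosomal protein windows (13.7%), against 1.03% of all protein-coding windows and 1.74% of windows of genes in the table. Its 9-base form CTCGCGAGA was in 13.7%, against 0.760% of all windows and 1.31% of windows of genes in the table. For its 10-base form TCTCGCGAGA the same 3 shares were 11.8%, 0.545% and 0.917%. These are nested forms of 1 motif and not separate results. The 7 windows are shown around the motif, which is in capitals.
Rpl10a (chr20:6390471-6390500, + strand): aacgagccattCTCGCGAGagcacgagctc
Rpl17 (chr18:70856215-70856244, + strand): gggcaggaagtCTCGCGAGaggtcgaggtc
Rpl26 (chr10:54109656-54109685, + strand): gctccgagactCTCGCGAGatctcgtgtca
Rpl27a (chr1:172974543-172974572, + strand): gcgccttctacCTCGCGAGacttggtgggc
Rpl4 (chr8:73566227-73566248, + strand): actCTCGCGAGagttttaacga
Rps28 (chr7:15311375-15311404, - strand): ctgcgtgcggtCTCGCGAGagcggaagtga
Rps7 (chr6:50999443-50999472, - strand): tatgagctgttCTCGCGAGagctgtgtctc
The palindrome began 51 bases before the start in Rpl10a, 50 in Rpl17, 60 in Rps28, 25 in Rpl26, 19 in Rpl27a, 16 in Rps7 and 247 in Rpl4. All but Rpl26 of these 7 windows also had a TOP-like tract within 5 bases of the start.

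The ETS core CTTCCGG, bound by factors such as GABP, was in 29.4% of ribosomal protein windows, 10.7% of all windows and 16.3% of windows of genes in the table. Its counts in other lists of the translation machinery, several of which held it more often, are given with those lists. The YY1 core AAGATGG was in 13.7%, 7.29% and 8.0%, and its longer form AAGATGGC, which contains it, in 7.84%, 3.67% and 5.19%. The motif ATGG was searched as the context of a start codon, on the strand of the gene after the start, and was in 37.3%, 24.0% and 21.2%. It is also part of the YY1 core, and start codons were not told apart from parts of that core. The remaining motifs are given with the same 3 shares. The SP1 and KLF core GGGCGG was in 54.9% of ribosomal protein windows, above the 41.8% of all windows and under the 61.8% of genes in the table. The E-box CACGTG was in 9.80%, 7.02% and 9.15%. CCAAT was in 25.5%, 38.0% and 37.0%. The NRF1 core GCATGCGC was in 5.88%, 3.11% and 4.91%, and its 10-base form GCGCATGCGC was in 0 of 51 windows against 1.08% and 1.79%. TATAAA was in 9.80%, 13.0% and 6.73% on either strand, in 5.88%, 8.31% and 4.25% on the strand of the gene, and in 3.92%, 1.65% and 0.869% from 40 to 16 bases before the start, where the first share is above both others but stands for 2 windows.

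**Figure D2:**
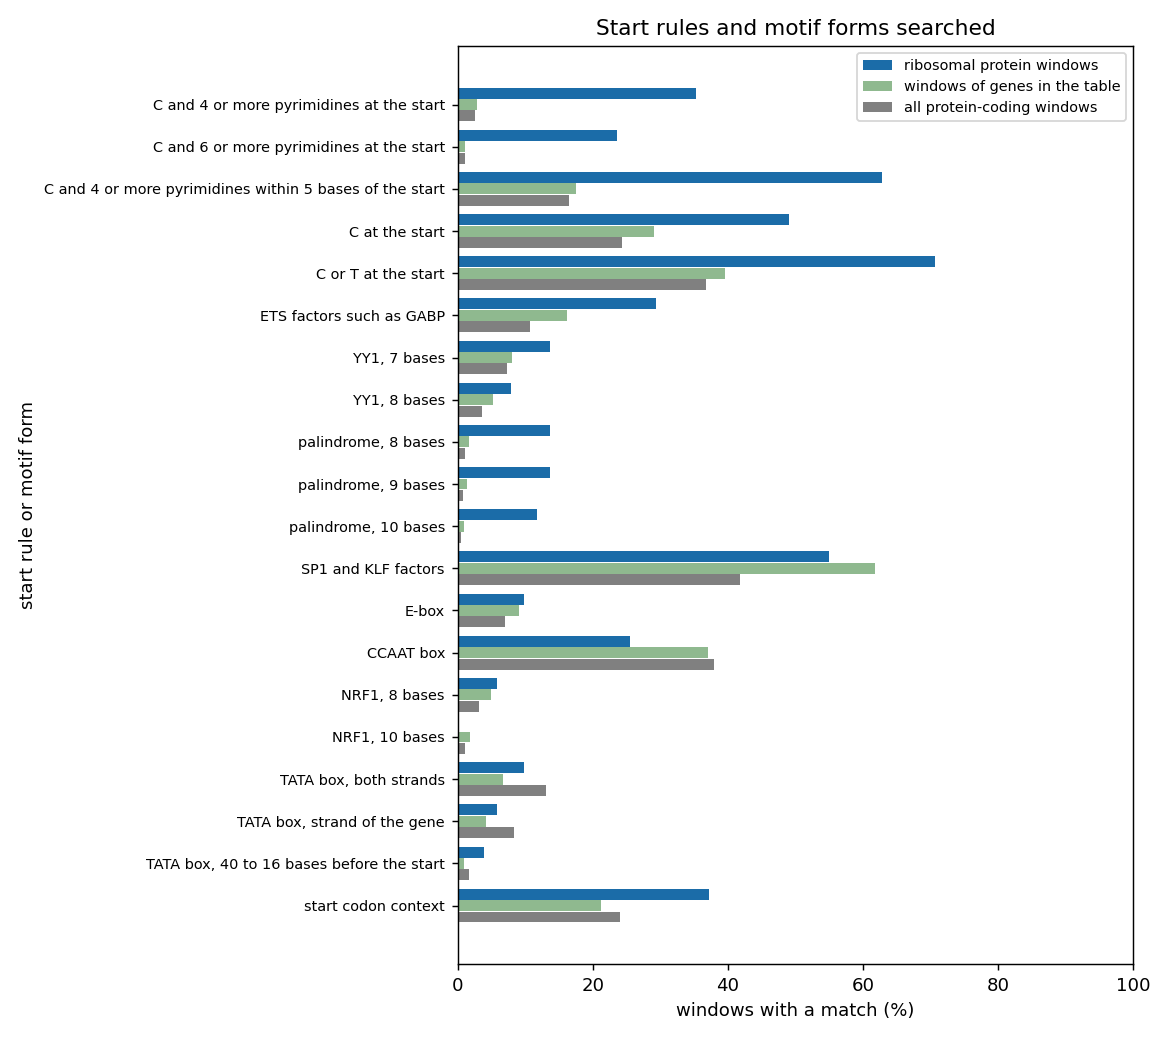
Share of windows (%) with each start rule or motif form, for 51 ribosomal protein windows (blue), 10583 windows of genes in the table (green) and 21851 protein-coding windows (grey), with all bars from 0. The tract at the start was in 35.3%, 2.83% and 2.52%, while the CCAAT box was in 25.5%, 37.0% and 38.0%.

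The ribosomal protein rows had a higher median level than all protein_coding rows. The median average log2 CPM was 7.28 (quartiles 6.76 and 7.81), against 5.02 (quartiles 3.76 and 6.22) over 12383 protein_coding rows, a gap of 2.26, and 89.6% of protein_coding rows lay under the ribosomal protein median. Of the 68 rows, 63 were above the protein_coding median and 56 above its upper quartile. Together the 68 of 12828 rows summed to 11135 CPM, 1.11% of the sum over all rows. The 40 large subunit rows had a median of 7.30 and the 28 small subunit rows one of 7.22. The genes outside the group nearest the ribosomal protein median in average log2 CPM were Cbx3, Fat1, Lmtk2, Fhl1 and Zfp365, at 7.27 or 7.28.

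Of the 68 rows, 53 were within 1 log2 unit of their median. Over all protein_coding rows the SD was 1.86, and over the 72 rows of mitochondrial ribosomal proteins it was 0.65. Over the 68 ribosomal protein rows it was 1.72. Without the symbols ending in l and the 3 rows away from the RefSeq locus described with the neighbouring genes, an alternative chosen after seeing the data, the SD was 0.72. The highest row exceeded the lowest 499-fold in CPM, while the upper quartile exceeded the lower 2.07-fold. The 10 rows with the most reads held 28.2% of the summed CPM of the group. Below a log2 CPM of 4 there were 5 rows, all of which were paralogs or second copies of a symbol.

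Among the 10 rows with the most reads, Rpl4, a protein of the exit tunnel, had an average log2 CPM of 8.78. Rpl3 followed at 8.57 and Rpl21 at 8.54. Rpsa, which is also known as a laminin receptor, was at 8.27, and Rpl19 at 8.19. Rps16 was at 8.09, Rpl7 at 8.08 and Rpl10 at 8.06. Of the stalk, Rplp0 was at 8.13 and Rplp1 at 8.01, while Rplp2 was not analysed here.

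Rpl5 and Rpl11, which bind 5S ribosomal RNA and, when free, the p53 regulator Mdm2, had average log2 CPM of 7.97 and 7.11. Rps4x, the X-linked form of a protein that also has a Y-linked form in primates, was at 7.95. Rps27a, translated as a fusion with ubiquitin, was at 7.91 in its row on chromosome 14. RefSeq on GRCr8 lists 79 protein-coding symbols of this naming pattern, of which 63 were analysed here. The other 16 were Rpl3l, Rpl7a, Rpl8, Rpl9, Rpl22, Rpl35a, Rpl36a, Rpl37, Rpl38, Rpl39, Rplp2, Rps6, Rps13, Rps19, Rps26 and Rps29, which were not analysed here under these symbols.

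At the other end, Rpl39l, a paralog of Rpl39 known from the male germ line, had an average log2 CPM of -0.18. Rpl10l, an intronless paralog of Rpl10 that is known from the testis, was at 1.02, a CPM 132 times lower than that of Rpl10. The row of Rpl32 on chromosome 6 was at 0.94 and the row of Rps27a on chromosome 5 at 2.53. Above Rps27l the next rows were Rpl30 at 5.44, Rps10 at 5.53, Rpl36 at 5.63, Rps9 at 5.63 and Rps20 at 5.72.

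**Figure D3:**
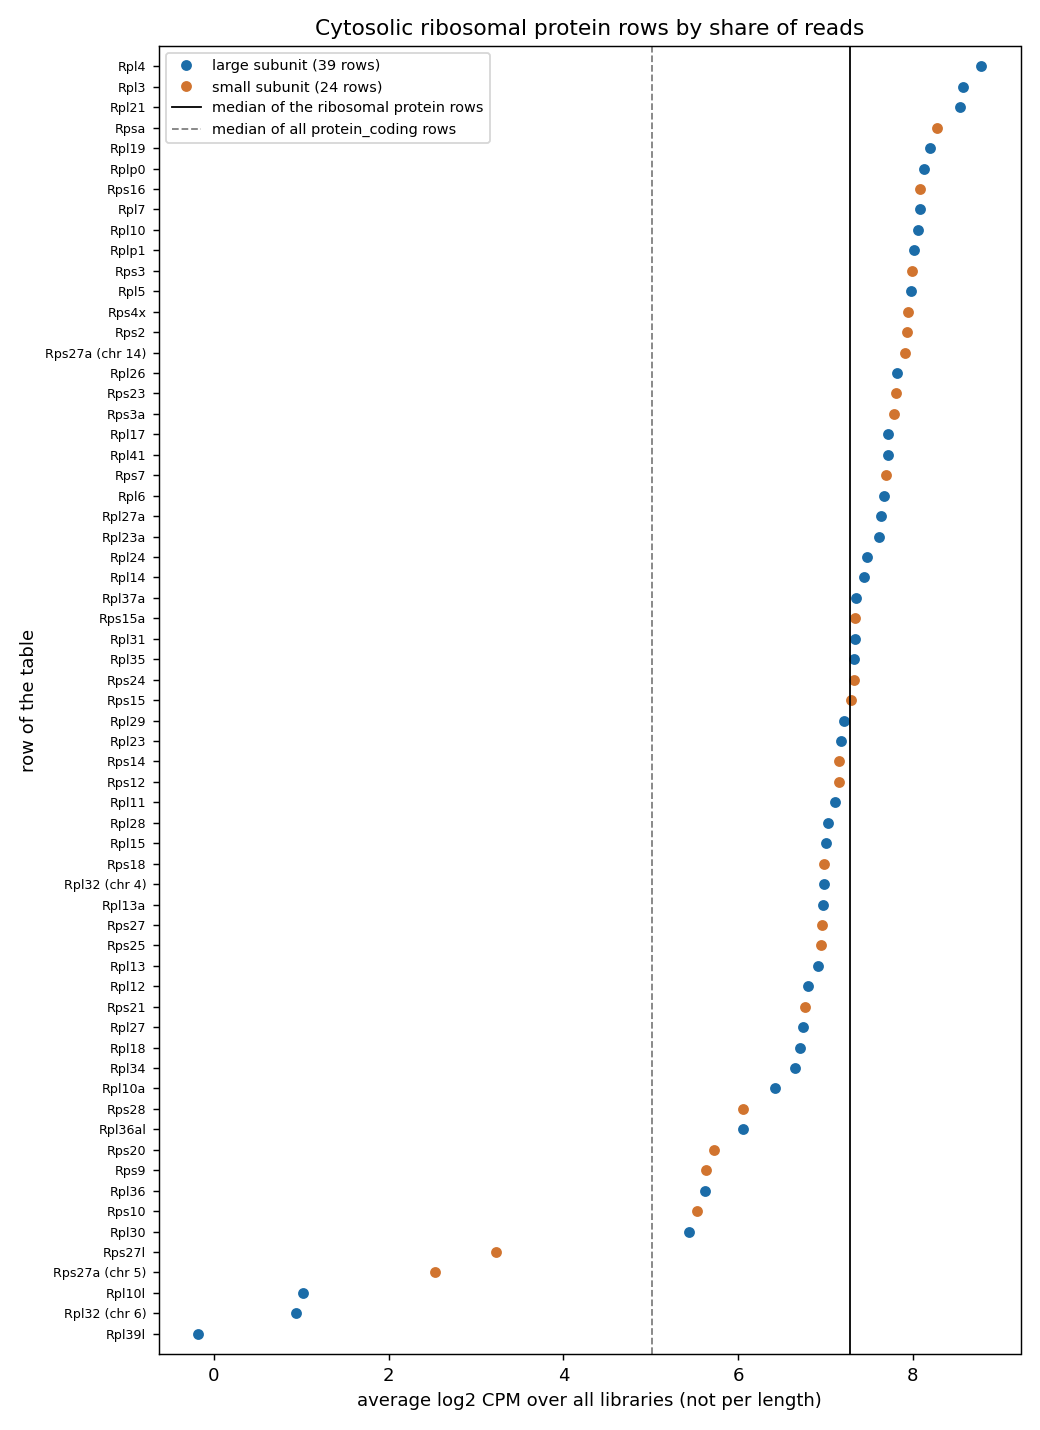
Average log2 CPM over all libraries (x axis, not per length) of 63 of the 68 ribosomal protein rows, in order of reads, with large subunit rows in blue and small subunit rows in orange. The solid line is the median of all 68, 7.28, and the dashed line the median of 5.02 over protein_coding rows, and 5 rows lie under 4.

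Reads of several rows may also fit a copy. RefSeq on GRCr8 names 901 pseudogenes after symbols of this pattern, 735 of them after one of the 66 symbols, with a median of 11 per symbol and at least 1 for 63 symbols. Rps2 had 36, Rps27a 29, Rpsa 25 and Rpl7 24. Across the 68 rows the number of named pseudogenes and the average log2 CPM had a Spearman rho of 0.15, given as a description over rows that are not independent. The sources used here name HTSeq as the counting tool but not how it treated reads that fit several copies. Whether such reads were dropped or counted was not checked, so levels of all members with such copies are uncertain.

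The neighbouring genes separated 3 rows from the gene whose symbol they bear. For each row the 3 nearest rows on either side in the table (build Rnor_6.0) were compared with the 8 protein-coding genes on either side of the RefSeq gene of that symbol on GRCr8. Of 65 rows whose symbol RefSeq lists, 60 shared at least 2 neighbours, Rpl29 and Rps9 shared 1, and 3 shared none and lay on another chromosome. These were Rpl30 (chr10:38024477-38024937, between RGD1310352 and Fstl4), Rpl32 on chromosome 6 (chr6:145777318-145777767, between Rapgef5 and Sp4) and Rps27a on chromosome 5 (chr5:138628482-138629026, between Foxj3 and Hivep3), all on Rnor_6.0. They spanned 461, 450 and 545 bases. The Rpl32 row on chromosome 4 (chr4:147715473-147719072) spanned 3600 bases and was at an average log2 CPM of 6.98, and the row on chromosome 6 held 1.49% of the CPM of both. The Rps27a row on chromosome 14 (chr14:113966611-113968268) spanned 1658 bases, and the row on chromosome 5 held 2.34% of the CPM of both. Rpl30 had a single row, at 5.44, and it was the short one away from the RefSeq locus.

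Symbols ending in l also differed between the annotations. The row named Rpl36al, on the X chromosome at an average log2 CPM of 6.05, shared all 6 of its neighbours, among them Timm8a1 and Gla, with the RefSeq gene Rpl36a and 0 with Rpl36al1, which RefSeq gives the synonym Rpl36al. The rows of Rpl39l and Rpl10l each shared 5 of 6 neighbours with the RefSeq genes Rpl39l1 and Rpl10l1.

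The members were short genes. Their median span was 2917 bases, against 22373 over protein_coding rows, and 66 of 68 were under 10000 bases. The exceptions were Rpl3 with 14211 and Rps9 with 71897 bases. Under 1000 bases there were 7 rows, which were Rpl32 on chromosome 6, Rpl30, Rps27a on chromosome 5, Rpl36, Rpl10l, Rps21 and Rps20. The Spearman rho of span and average log2 CPM over the 68 rows was 0.33, again a description. Another row overlapped 6 members, with Syngr1 at Rpl3, RGD1562987 at Rpl17, Tlcd1 at Rpl23a, Tbc1d8 at Rpl31, Mboat7l1 at Rps9 and Foxj3 at Rps27a on chromosome 5, and the levels of these 6 are uncertain for that reason too.

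**Figure D4:**
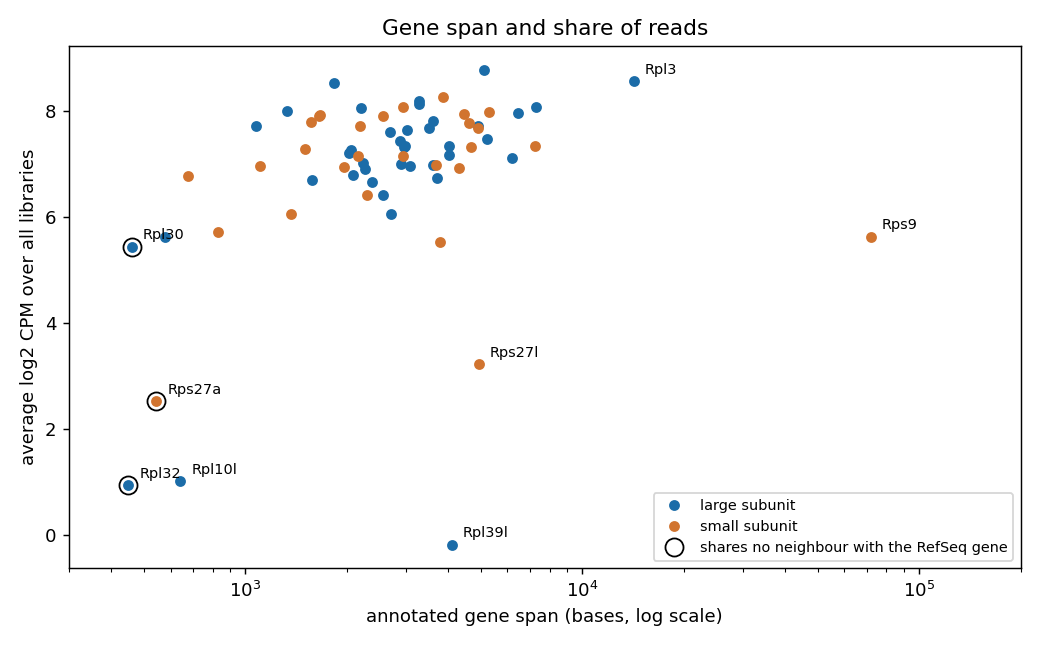
Annotated gene span (x axis, bases, log scale) and average log2 CPM over all libraries (y axis) of the 68 ribosomal protein rows, large subunit in blue and small subunit in orange. Circles mark the 3 rows that share no neighbour with the RefSeq gene of their symbol, at spans of 450 to 545 bases.

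The genes were spread over 19 chromosomes, with 12 rows on chromosome 1, 8 on chromosome 10 and 7 on chromosome 8. Rpl23 and Rpl19 on chromosome 10 were 253261 bases apart, with average log2 CPM of 7.18 and 8.19, and Rpsa and Rpl14 on chromosome 8 were 430541 bases apart, at 8.27 and 7.45.

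Levels overlapped between genes with and without the start tract. The median average log2 CPM was 7.34 in 18 genes with the tract at the start, 7.18 in 13 genes with it within 5 bases and 7.72 in 19 genes with neither, with ranges of 6.42 to 8.19, 5.53 to 8.78 and 3.23 to 8.57. Each gene entered once, and Rps27a, whose windows differed, by its row on chromosome 14 and among the genes with neither. With the ETS core the median was 7.33 in 15 genes and without it 7.45 in 35. No test was made, and the length of the transcripts was not taken into account.

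Levels of ribosomal proteins outside the naming pattern varied. Rack1, a scaffold on the head of the small subunit, had an average log2 CPM of 7.60. Fau, which encodes Rps30 fused to a ubiquitin-like protein, was at 7.56. The paralogs Rpl22l1 and Rpl7l1 were at 5.78 and 5.06, under the lower quartile of 6.76 of the ribosomal protein rows. The rows Rps10l1 and Rps4y2, chosen after their values were seen, were at 5.13 and 1.52. The 72 rows of mitochondrial ribosomal proteins, with Mrpl and Mrps symbols, had a median of 4.67 (quartiles 4.22 and 5.06), and none was above the upper quartile of protein_coding rows.

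Beside the ribosomal protein median of 7.28, the other lists of the translation machinery had medians from 4.42 to 7.60. The list of other TOP mRNAs had 19 of 20 genes in the table and a median of 7.60, led by the elongation factors Eef1a1 at 10.94 and Eef2 at 10.19 and by Tpt1 at 9.08. Elongation and release factors (13 of 13) had a median of 6.95, with the neuronal and muscle form Eef1a2 at 9.31 after the same 2 genes. Initiation factors (34 of 37) had a median of 6.71, led by Eif4g2 at 9.86, the helicase Eif4a2 at 9.62 and the start-codon factor Eif1 at 8.31. Nascent chain factors (16 of 18) had a median of 5.89, led by Naca at 7.74, Naa15 at 7.16 and Btf3 at 6.97. Genes of mTORC1 signaling (25 of 28) had a median of 5.39, led by Tsc2 at 7.18, Mtor at 7.14 and Sesn3 at 7.06. Ribosome assembly genes (36 of 40) had a median of 5.03, with Ncl at 8.70, Gnl3l at 8.34 and Npm1 at 7.98. The RNA polymerase I machinery (13 of 13), which transcribes ribosomal RNA, had a median of 4.42, with Ubtf at 6.62, Rrn3 at 5.60 and Polr1a at 5.09.

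**Figure D5:**
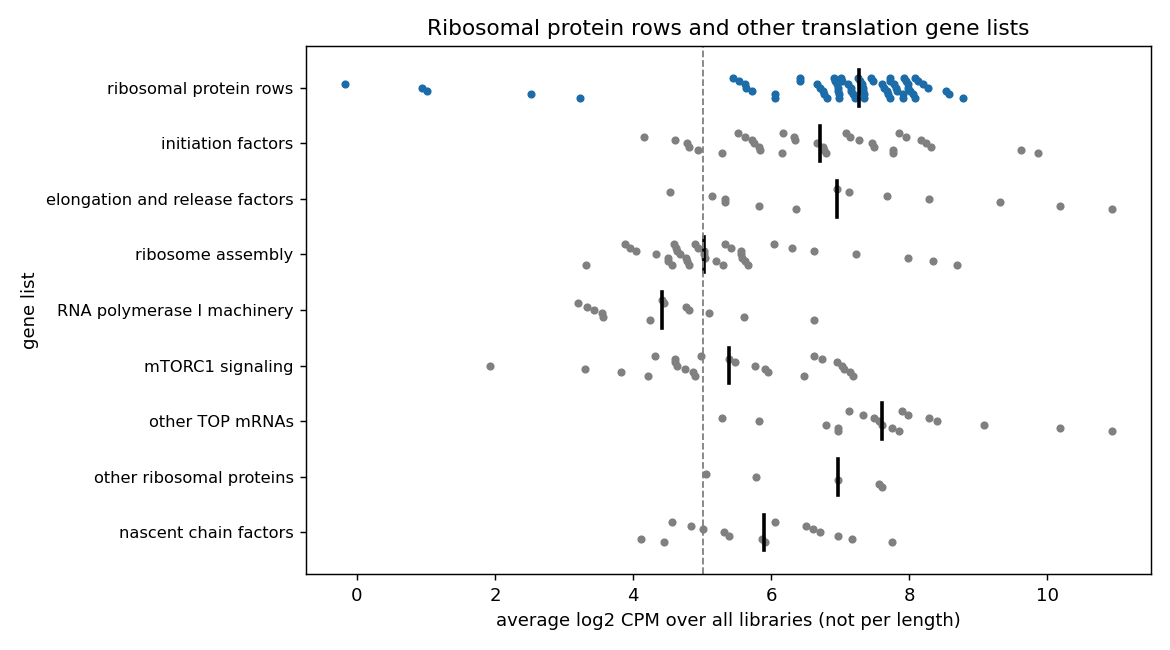
Average log2 CPM over all libraries (x axis, not per length) of the 68 ribosomal protein rows (blue) and of the genes of 8 other lists (grey), 1 point per row, with vertical shifts only to separate points. Black bars are medians, from 4.42 for the RNA polymerase I machinery to 7.60 for other TOP mRNAs, and the dashed line is the protein_coding median of 5.02.

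The start rule was also applied to the windows of those lists, beside background shares of 2.52% at the start and 16.5% within 5 bases over all protein-coding windows. None of the 16 windows of other TOP mRNAs had a cytosine and at least 4 pyrimidines exactly at the annotated start, and 6 (37.5%) had it within 5 bases, in Eef1a1, Eef1b2, Eif3f, Fau, Naca and Nap1l1. Ribosome assembly genes had it at the start in 2 of 37 windows (5.41%), those of Gar1 and Nop2, and within 5 bases in 6 (16.2%). Mitochondrial ribosomal proteins had it at the start in 2 of 65 windows (3.08%), those of Mrpl4 and Mrps5, and within 5 bases in 16 (24.6%). In the other lists no window had it at the start. Within 5 bases it was in 8 of 35 windows of initiation factors (22.9%), 3 of 12 of elongation and release factors (25%), 4 of 18 of nascent chain factors (22.2%), 1 of 11 of the RNA polymerase I machinery (9.09%), 1 of 23 of mTORC1 signaling (4.35%) and 1 of 4 of other ribosomal proteins. The ETS core was in 18 of 37 windows of ribosome assembly, 5 of 11 of RNA polymerase I and 7 of 18 of nascent chain factors. For mTORC1 signaling it was 8 of 23, for initiation factors 12 of 35 and for mitochondrial ribosomal proteins 21 of 65. Other TOP mRNAs had it in 2 of 16, elongation and release factors in 0 of 12 and other ribosomal proteins in 1 of 4.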

How the data were processed

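As the methods state, the authors aligned poly-A RNA-seq reads of 10 dams with STAR 2.6.0c to Rnor_6.0 and counted them on Ensembl genes with HTSeq 0.6.1p2, after Trim Galore 0.5.0 (versions from the submitters' processing notes). The authors deposited 1 average log2 CPM per gene over all libraries, the only value used. The methods describe a minimum of reads per gene followed by independent filtering, but how these relate to the 12828 rows, and which tool averaged the CPM, is not given in the sources used here. The log2 fold change, F statistic, p-value and FDR of the diets, which are the authors' own comparison, were not used. A further 10 per-sample columns match no label and were not used, so the planned diet test was not run and the depth of each library was not computed.

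Members and lists were chosen with earlier results of these data known. Promoter windows and neighbours came from RefSeq (GRCr8). Coordinates of rows are on Rnor_6.0, and builds were not converted. The levels, their spread and the start rules were planned. Motif forms, the neighbour comparison and its limit of 0 shared neighbours, which replaced a first limit of fewer than 2 after the rows were seen, were chosen after seeing the data. Genes were named by rule: the 10 highest and 10 lowest rows, known members, paralogs and copies, the 3 highest of each list, and the 5 genes nearest the median. Genes named for a window, pseudogenes, span, overlap or position were chosen after their values were seen. Values of some genes are not reported here. Start-rule and motif scans were run on simulated sequences of A and G with planted matches. No other match was possible there, so the rate of false matches was not tested. Python 3.11.15, numpy 2.4.6, pandas 2.3.3, scipy and matplotlib 3.10.9 were used.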

Additional observations from a re-analysis of the deposited data

How the results depend on the processing

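No paired analysis was possible because the columns used carry no replicate number and the results come from no test. The gap between the ribosomal protein median and that of protein_coding rows, 2.26 in log2 CPM, was 2.34 with all rows as background and 2.31 without symbols ending in l. Among alternatives chosen after seeing the data, it was 2.31 without the 3 rows away from the RefSeq locus and 2.29 with Fau and Rack1. The SD among rows, 1.72, was 1.24 without symbols ending in l and, in alternatives chosen after seeing the data, 1.48 without those 3 rows, 1.70 with Fau and Rack1 and 0.72 without both kinds of row, so it rested mainly on few rows. The share of windows with the start tract, 35.3%, was 62.7% within 5 bases of the start, a wider rule by construction that also raised the background. It was 23.5% with 6 pyrimidines and 36.0% with 1 window per gene (chosen after seeing the data), both within the binomial interval. Levels per kilobase of coding sequence and all 5 alternatives of the diet difference (tool, normalization, filter, leaving out dams, replicate block) were not run. Depth per library was not computed, so what it limits is not given.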

Other observations

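Long pyrimidine runs at the start also occurred in other genes. Outside the ribosomal protein genes, 36 of 10532 windows of genes in the table (0.342%) had a run of at least 10 bases that began with a cytosine at the start, against 5 of 51 ribosomal protein windows (9.80%). The longest were in Bcl2l2, an anti-apoptotic gene, with 42 bases and an average log2 CPM of 7.54, and in Cltc, the clathrin heavy chain gene, with 30 bases and 10.27. These genes were chosen after their values were seen.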
